A study of Solanum lycopersicum with 18 samples.

Results

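Leaf transcripts of the tomato material Micro-TOM-EX (EX) after 4 h of the treatment were compared with those of the same material at 0 h, in 3 RNA-seq libraries each. The comparison took every gene whose mean reached 1 FPKM (fragments scaled to the length of the transcript and the depth of the library) at 4 h or at 0 h, which kept 17325 of the 23348 genes of the deposited table. Of these, 16373 reached this level at both times, 423 at 4 h alone and 529 at 0 h alone. A gene of either last group had to differ in level to be kept. Just inside the limit, 196 genes had a highest mean of 1 to 1.1 FPKM, and just outside it 200 genes had 0.9 to 1 FPKM. The whole series holds 18 leaf libraries, with EX and the dwarf cultivar Micro-TOM (MT) each sampled at 0, 4 and 12 h.

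EX at 4 h and EX at 0 h share the genotype label Micro-TOM-EX, and nothing in the labels says what the suffix stands for. They also share soil culture with 16 h of light. The protocol for growth has both materials in the cold for 0, 4 or 12 h. The separate stress label reads cold for every EX library, 0 h included, and control for every MT library. The hours of treatment and the time of day cannot be told apart with these labels. No plant age or temperature is given there. The labels do not say that the 3 libraries of a time came from separate plants, so every p-value here reflects the spread among 3 libraries, possibly technical, and not among plants. In leaf RNA as a whole, fewer cells of a type and less RNA per cell cannot be told apart.

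As background, plants exposed to cold are known to switch on CBF transcription factors, which bind the promoters of genes that raise cold tolerance. Tomato comes from the tropics and is easily injured by chilling. Leaf transcripts also follow light and the circadian clock: nitrate reductase, CONSTANS-family and carotenoid genes of many plants are known to cycle through the day. Leaf cells grow by loosening their walls, in which expansins and xyloglucan endotransglucosylases (enzymes that break and rejoin the xyloglucan tethers between cellulose fibres) take part.

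The libraries matched their tissue label. The Rubisco small-subunit genes were abundant: RBCS4 had 26758, 24344 and 22555 FPKM at 4 h, against 23185, 16429.9 and 26037 FPKM at 0 h, and rbcS1 had 6501, 5192 and 5218 FPKM at 4 h, against 5953, 3959.8 and 7498 FPKM at 0 h. Of 19 marker genes of fruit, pollen, root and meristem, 1 was at 0 in all 6 libraries and 4 passed the limit of 1 FPKM, and their summed level was 104 to 123 FPKM at 4 h and 109 to 151 FPKM at 0 h. Nearly all of this sum came from LAT61 (63.4 to 76.5 FPKM at 4 h, 73.6 to 99.9 FPKM at 0 h) and TDR6 (27.8 to 33.8 FPKM at 4 h, 22.1 to 33.6 FPKM at 0 h). Estimated depth was 17400000 to 18200000 fragments per library at 4 h and 17100000 to 17900000 at 0 h. On the first principal component of the 6 EX libraries (58.0% of the variance) the 4 h libraries lay at 31.3 to 42.7 and the 0 h libraries at -48.5 to -23.6. Library 2 of 0 h stood apart on the second (28.7%), at 50.7, against -34.9 to 3.49 for the other 5. The 4 h libraries were also more alike, with correlations across genes of 0.983 to 0.988, against 0.933 to 0.980 among the 0 h libraries.

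In total 2028 genes changed between 4 h and 0 h, which is 11.7% of those tested (limma on log2(FPKM + 1), Benjamini-Hochberg adjusted p under 0.05). They split into 1130 that rose at 4 h (6.52%) and 898 that fell (5.18%). An unadjusted p under 0.05 was reached by 4228 genes. Of the 2028, 1786 were among the 16373 genes that reached 1 FPKM at both times, 131 among the 423 that did so at 4 h alone and 111 among the 529 that did so at 0 h alone, which entered through the group where they are high. Changes of at least 1 log2 unit were made by 955 genes (5.51%), of which 565 rose and 390 fell, and 116 and 88 of these changed by at least 2 log2 units. All fold changes here are 4 h over 0 h of log2(FPKM + 1), so that changes of weakly expressed genes come out too small. Abundant genes, with 100 FPKM or more on average at either time, numbered 1348, of which 103 rose and 75 fell. The median log2 fold change of all genes tested was 0.02. The 3 libraries of 4 h did not overlap the 3 libraries of 0 h in 6250 genes (36.1%), and in 2018 of the 2028 called ones. The count depended on the libraries: it was 1204 without library 1 of 0 h, 1253 without library 2 of 4 h and 1305 without library 3 of 4 h. A total of 1006 genes (561 rising, 445 falling) kept their call whichever library was left out. Without library 2 of 0 h 2012 genes were called, 1632 of them among the 2028.

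**Figure D1:**
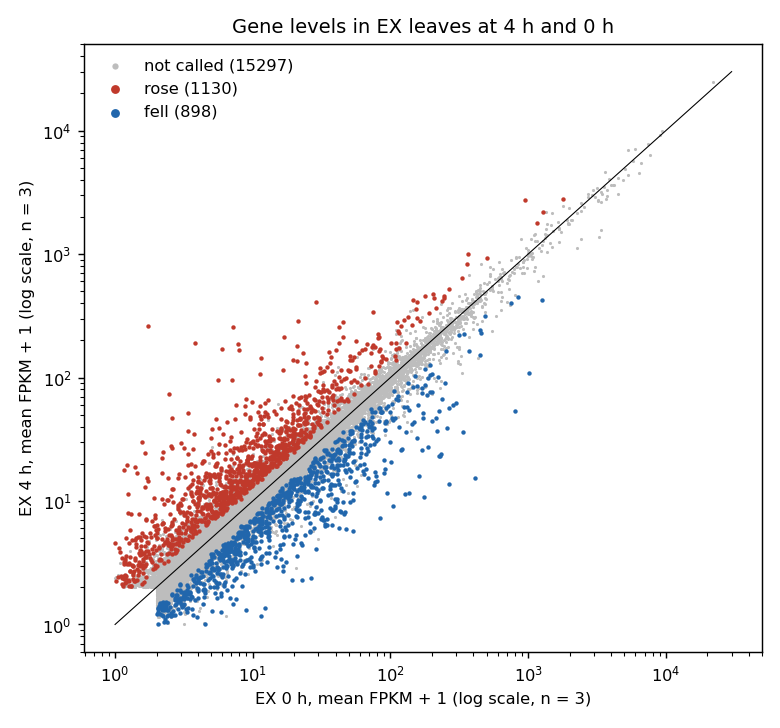
Mean level of each of the 17325 genes in EX leaves, with 4 h on the vertical axis and 0 h on the horizontal axis (FPKM + 1, log scales, n = 3 each). Red points are the 1130 genes that rose, blue points the 898 that fell and grey points the rest. The line marks equal levels, and called genes are spread over the whole range of levels.

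The share of called members is given for most gene lists beside their median log2 fold change. Both are to be read against 11.7% called and a median of 0.02 over all genes. A list whose share is close to 11.7% does not stand apart by its count. Among list members named below, NCED2, JRE4, IAA5, GA2ox2, GA2ox4, MYB75, WRKY45, ELIP and LAT56 averaged 1 FPKM or more at 4 h alone. ANS did so at 0 h alone. These genes entered through the group where they are high. The genes with the highest and lowest fold changes were chosen among called genes whose groups do not overlap, so that separation is part of their choice. For other called genes separation adds little to the call, since 2018 of all 2028 called genes show it.

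Some genes of nitrogen uptake and reduction and of phosphoenolpyruvate carboxylase were among those that rose, and a link between these groups was not tested. NR encodes nitrate reductase, which turns nitrate into nitrite (chromosome 11, 7173681 to 7178200), and it had 167, 228 and 166 FPKM in the 4 h libraries and 6.07, 9.13 and 5.32 FPKM in the 0 h libraries. Every 4 h library was far above every 0 h library (log2 fold change 4.6, SE 0.37, adjusted p = 1.52e-06). Coordinates are printed as deposited, and the sources used here name no genome build for them. AMT1-1, an ammonium transporter gene, had 20.1, 32.2 and 26 FPKM at 4 h, against 6.18, 9.67 and 3.01 FPKM at 0 h (log2 fold change 1.98, adjusted p = 0.0179). It lost its call without library 2 or 3 of 4 h or library 1 or 3 of 0 h (adjusted p 0.0524 to 0.0875). Of 12 tested genes of nitrogen uptake, reduction and amide synthesis, these 2 rose and 0 fell (16.7% called, beside 11.7% of all genes). The median log2 fold change of the list was 0.19, beside 0.02 for all genes. nii1, the gene of nitrite reductase, the next enzyme of the pathway, was not called (68.7, 72.4 and 62.6 FPKM at 4 h, against 54.1, 52.4 and 56 FPKM at 0 h; log2 fold change 0.32, adjusted p = 0.306). The glutamine synthetase genes GS1 (log2 fold change 0.07) and GS2 (log2 fold change -0.15) were not called either.

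Phosphoenolpyruvate carboxylase fixes bicarbonate into oxaloacetate, and its kinase relieves it of feedback inhibition by malate. The kinase gene PPCK1 (chromosome 4, 3214705 to 3216181) had 202, 457 and 201 FPKM in the 4 h libraries and 22.5, 32.5 and 5.6 FPKM in the 0 h libraries. Library 2 was the highest at both times, and the groups did not overlap (log2 fold change 3.94, SE 0.45, adjusted p = 3.89e-05). PEPC4, a carboxylase gene, had 13.1, 13.3 and 12.6 FPKM at 4 h, against 3.58, 3.44 and 4.65 FPKM at 0 h (log2 fold change 1.53, adjusted p = 7.17e-05), with little spread at either time. PEPC2 was higher in level, at 50.6, 62 and 43 FPKM at 4 h, against 27.2, 25.9 and 23.7 FPKM at 0 h (log2 fold change 0.98, adjusted p = 0.0061). The other 3 of the 6 tested members (PEPC1, PPC1 and PPCK2) were not called, with log2 fold changes between -0.17 and 0.20. Thus 50% of the list was called (median 0.59), beside 11.7% of all genes. The 3 calls held whichever EX library of 4 h or 0 h was left out. GAD2, whose enzyme makes 4-aminobutyrate (GABA) from glutamate, was the 1 called gene of 7 on GABA metabolism (14.3% called, median 0.08). It had 568, 714 and 628 FPKM at 4 h, against 319.9, 479.7 and 187 FPKM at 0 h (log2 fold change 1.05, adjusted p = 0.0169). This call was lost without library 2 or 3 of 4 h or library 3 of 0 h (adjusted p 0.0518 to 0.0741). A separate gene listed as gad2 had 101, 109 and 104 FPKM at 4 h, against 105, 79.2 and 116 FPKM at 0 h (log2 fold change 0.08, adjusted p = 0.886). Neither gad2 nor GAD3 (log2 fold change -0.29) was called.

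Among 33 genes of starch, sucrose and galactinol, 3 rose and 1 fell (12.1% called, median 0.04), close to the share over all genes. BMY3, a beta-amylase gene, had 50.5, 60.5 and 54.3 FPKM at 4 h, against 19, 16 and 17.3 FPKM at 0 h (log2 fold change 1.6, adjusted p = 3.28e-05), without overlap. The hexose transporter gene HT2 had 30.2, 48 and 64.4 FPKM at 4 h, against 7.25, 21.5 and 4.64 FPKM at 0 h (log2 fold change 2.19, adjusted p = 0.0384), where library 2 of 0 h was the highest of its group. HT2 lost its call without library 1, 2 or 3 of 4 h or library 1 or 3 of 0 h (adjusted p 0.0518 to 0.155), BAM1 (log2 fold change 0.85) without library 1, 2 or 3 of 4 h or library 1 or 3 of 0 h (adjusted p 0.0556 to 0.127) and SFP4, the falling gene (log2 fold change -0.52), without library 1 or 3 of 4 h or library 1 of 0 h (adjusted p 0.06 to 0.0771). Without library 2 of 0 h, 6 members rose and 1 fell.

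**Figure D2:**
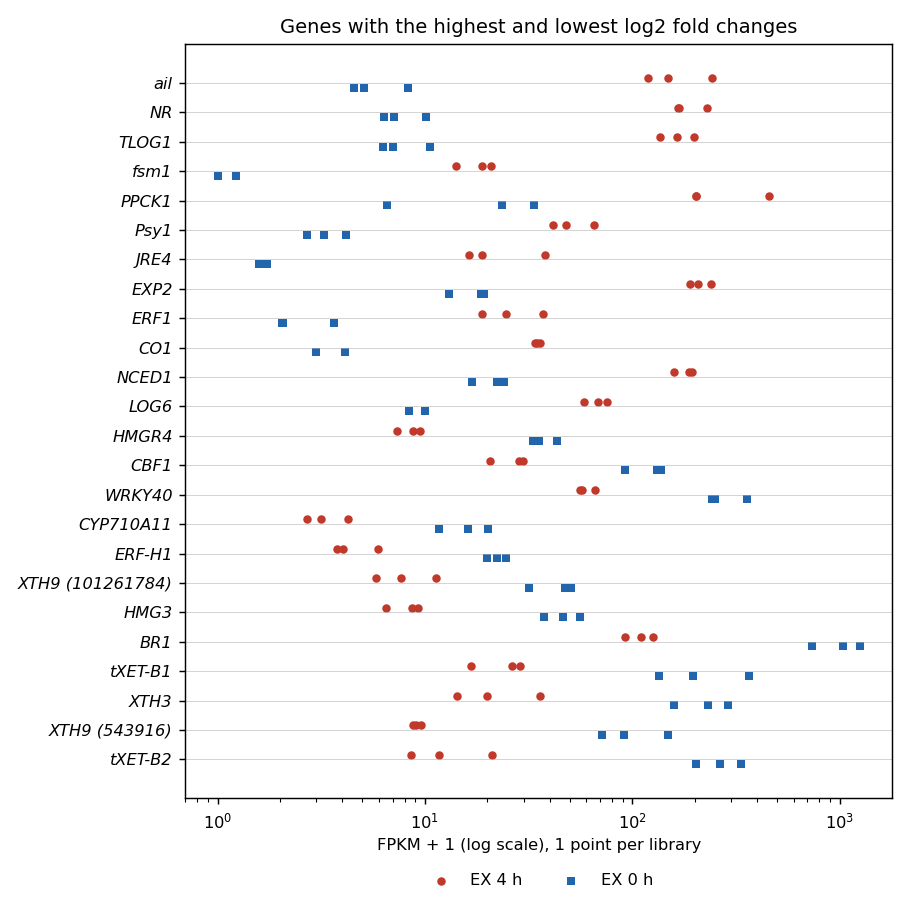
FPKM + 1 on a log scale in each of the 3 libraries of EX at 4 h (red circles) and of EX at 0 h (blue squares) for the called genes with symbols whose log2 fold changes were the 12 highest and the 12 lowest. The gap between the 4 h and 0 h points was a condition for choosing these genes. Among the wider spreads within a time are those of PPCK1 and tXET-B1 at 0 h and of tXET-B2, XTH3 and JRE4 at 4 h.

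Carotenoids are made in plastids from phytoene, and the plant hormone abscisic acid is cut from them. Psy1, which encodes phytoene synthase, the first committed enzyme (chromosome 3, 4324965 to 4330008), had 64.5, 46.8 and 40.7 FPKM in the 4 h libraries and 1.7, 2.27 and 3.17 FPKM in the 0 h libraries. The lowest 4 h library was more than 10 times the highest 0 h library (log2 fold change 3.93, SE 0.24, adjusted p = 9.1e-08). Its paralogue PSY2 was not called (45.5, 36.3 and 37.2 FPKM at 4 h, against 36.5, 29.4 and 45.6 FPKM at 0 h; log2 fold change 0.11, adjusted p = 0.876). LCY1, a lycopene cyclase gene, had 54.2, 55.1 and 48.5 FPKM at 4 h, against 20.7, 20 and 20.5 FPKM at 0 h (log2 fold change 1.32, adjusted p = 1.79e-06). PTOX, the plastid terminal oxidase that passes electrons from carotenoid desaturation to oxygen, had 61.7, 73.5 and 59.5 FPKM at 4 h, against 39.1, 43.6 and 29.1 FPKM at 0 h (log2 fold change 0.8, adjusted p = 0.00478). These 3 of the 25 tested carotenoid genes rose and 0 fell (12% called, close to all genes), and the median of the list was 0.01, beside 0.02 for all genes: the other 22 lay between -0.60 and 0.43. The 3 calls held in each fit with 1 EX library of 4 h or 0 h fewer.

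The step that commits carotenoids to abscisic acid is the cleavage by 9-cis-epoxycarotenoid dioxygenase, and 2 of its genes rose. NCED1 (chromosome 7, 64361075 to 64363240) had 158, 187 and 194 FPKM in the 4 h libraries and 21.2, 23.1 and 15.9 FPKM in the 0 h libraries, with a narrow spread in both groups (log2 fold change 3.11, SE 0.23, adjusted p = 7.52e-07). NCED2 was much lower in level and had 4.93, 6.69 and 6.64 FPKM at 4 h, against 0.81, 0.71 and 0.54 FPKM at 0 h (log2 fold change 2.06, adjusted p = 6.78e-05). CYP707A2, whose enzyme inactivates abscisic acid, had 51.9, 27.5 and 50.1 FPKM at 4 h, against 169, 74.2 and 357 FPKM at 0 h (log2 fold change -1.96, adjusted p = 0.042), and its 0 h libraries were widely spread. That fall lost its call without library 1, 2 or 3 of 4 h or library 1 or 3 of 0 h (adjusted p 0.0743 to 0.187). The 3 are the called members of 11 tested abscisic acid genes (27.3% called, median 0.08).

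Cytokinins are released in active form by LOG enzymes and degraded by cytokinin oxidases (CKX). TLOG1 (chromosome 4, 65331750 to 65335044) had 135, 197 and 163 FPKM in the 4 h libraries and 6.01, 9.55 and 5.28 FPKM in the 0 h libraries. It was among the 3 highest log2(FPKM + 1) fold changes of genes with a symbol (log2 fold change 4.4, SE 0.42, adjusted p = 6.95e-06). LOG6 had 67, 74.4 and 57.7 FPKM at 4 h, against 7.34, 7.37 and 9.01 FPKM at 0 h (log2 fold change 2.92, adjusted p = 3.06e-05). The third tested LOG gene, LOG8, was not called and its groups overlapped (7.81, 14.7 and 10.9 FPKM at 4 h, against 7.86, 9.8 and 3.29 FPKM at 0 h; log2 fold change 0.67, adjusted p = 0.627). CKX1 fell, with 12.6, 15 and 16.4 FPKM at 4 h, against 59.6, 32.1 and 56.8 FPKM at 0 h (log2 fold change -1.65, adjusted p = 0.000963), whereas CKX2 was among the 4 of 14 tested cytokinin genes that rose (log2 fold change 1.22, adjusted p = 0.00166, named after its values were seen). The fourth was CRF10, a cytokinin response factor gene of the ERF family (log2 fold change 1.23, adjusted p = 4.44e-06). The median of the list was 0.76 (35.7% called), and all 5 calls held in each fit with 1 EX library fewer.

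Auxin genes formed the longest hormone list, with 13 of 64 tested members rising and 3 falling (25% called, median 0.25). IAA4, which encodes an Aux/IAA repressor of the auxin response, had 102, 157 and 142 FPKM in the 4 h libraries and 21.2, 23.8 and 14.8 FPKM in the 0 h libraries (log2 fold change 2.69, SE 0.26, adjusted p = 7.94e-06). IAA5 was low, at 5.52, 3.72 and 4.37 FPKM at 4 h, against 0.63, 0.4 and 0.68 FPKM at 0 h (log2 fold change 1.81, adjusted p = 1.85e-05), and the Aux/IAA genes IAA12, IAA15 and IAA16 also rose. GH3-9, of the family of enzymes that couple auxin to amino acids, had 66.8, 67.4 and 74 FPKM at 4 h, against 18.8, 21.4 and 15.2 FPKM at 0 h (log2 fold change 1.87, adjusted p = 4.46e-05). Other members of that family went opposite ways, GH3-10 rising and GH3-1 and GH3-7 falling. The auxin efflux carrier genes PIN3 and PIN4 and the auxin response factor genes ARF4 and ARF8a were also among the rising members. FZY5, of the flavin monooxygenase family that makes auxin, had 1.36, 4.17 and 7.24 FPKM at 4 h, against 17.8, 30.3 and 11 FPKM at 0 h (log2 fold change -2.05, adjusted p = 0.0365), a fall lost without library 1 or 2 of 4 h or library 1 or 2 of 0 h (adjusted p 0.084 to 0.168). Of these calls, 9 rising and 2 falling held whichever EX library of 4 h or 0 h was left out.

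Gibberellin 2-oxidases inactivate gibberellins, and GAI is a DELLA protein that holds back the gibberellin response. GA2ox2 had 2.57, 4.77 and 4.63 FPKM at 4 h, against 0, 0.43 and 0.15 FPKM at 0 h (log2 fold change 2.05, adjusted p = 0.0029). GA2ox4 had 2.92, 7.14 and 10.2 FPKM at 4 h, against 0.73, 2 and 0.16 FPKM at 0 h (log2 fold change 1.96, adjusted p = 0.0496), and GAI 128, 122 and 117 FPKM at 4 h, against 73.5, 69.7 and 71.6 FPKM at 0 h (log2 fold change 0.76, adjusted p = 0.0337). None of the 7 tested gibberellin genes fell in limma's test and 5 had an unadjusted p under 0.05 (42.9% called, median 0.58). GA2ox2 (mean 0.19 FPKM at 0 h) and GA2ox4 (0.96 FPKM) passed the limit of 1 FPKM at 4 h alone. They thus entered through the group where they are high, and the share and median partly follow from the limit. GA2ox4 lost its call without library 2 or 3 of 4 h or library 1 or 3 of 0 h (adjusted p 0.137 to 0.189) and GAI without any 1 of the 6 libraries (adjusted p 0.0736 to 0.103). Jasmonate genes had 2 of 18 members rising and 0 falling (11.1% called, median 0.17): OPR1, a 12-oxophytodienoate reductase gene (120.4, 115 and 106 FPKM at 4 h, against 44.9, 40.5 and 43.3 FPKM at 0 h; log2 fold change 1.39, adjusted p = 0.00023), and AOS2, an allene oxide synthase gene (40.2, 50 and 49.2 FPKM at 4 h, against 20.8, 31.3 and 20.1 FPKM at 0 h; log2 fold change 0.94, adjusted p = 0.00552). Ethylene genes had 2 of 35 rising and 0 falling (5.71% called, median 0.12, beside 11.7% of all genes), ER69 (log2 fold change 1.24, adjusted p = 0.00124) and the receptor gene ETR5 (log2 fold change 1.11, adjusted p = 0.0262), the second of which lost its call without library 2 or 3 of 4 h or library 1 or 3 of 0 h (adjusted p 0.0739 to 0.111). No member of the brassinosteroid list was called by limma (6 tested, 1 with an unadjusted p under 0.05), but 1 rose without library 2 of 0 h.

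Xyloglucan endotransglucosylase genes made up 6 of the 12 lowest fold changes of called genes with a symbol. tXET-B2 (chromosome 7, 63901555 to 63902817) had 10.7, 7.61 and 20.1 FPKM in the 4 h libraries and 202, 264 and 335 FPKM in the 0 h libraries. BR1 (chromosome 9, 71577885 to 71579973), the most abundant member at 0 h, had 90.8, 126 and 109.7 FPKM in the 4 h libraries and 1259, 735 and 1044 FPKM in the 0 h libraries. The groups did not overlap in either gene (tXET-B2 log2 fold change -4.35, SE 0.53, adjusted p = 7.17e-05; BR1 log2 fold change -3.19, SE 0.32, adjusted p = 1.2e-05). tXET-B1 had 27.8, 15.7 and 25.5 FPKM at 4 h, against 196, 134 and 364 FPKM at 0 h (log2 fold change -3.19, adjusted p = 0.00273). XTH9 stands for 2 genes: identifier 543916, a short model of bases 1 to 317 on an unplaced scaffold, had 7.81, 8.02 and 8.53 FPKM at 4 h, against 90.5, 70.4 and 147 FPKM at 0 h (log2 fold change -3.44, adjusted p = 0.00137). Identifier 101261784 on chromosome 12 had 4.83, 10.4 and 6.66 FPKM at 4 h, against 30.7, 49.9 and 46.4 FPKM at 0 h (log2 fold change -2.41, adjusted p = 0.0268), a call lost without library 1 or 3 of 4 h or library 1, 2 or 3 of 0 h (adjusted p 0.0527 to 0.101). XTH16 was also abundant and fell less, with 397, 427 and 380.5 FPKM at 4 h, against 824, 531 and 889 FPKM at 0 h (log2 fold change -0.86, adjusted p = 0.0156).

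XTH3 (chromosome 3, 54267447 to 54306824) had 18.9, 13.3 and 34.8 FPKM at 4 h, against 158, 231 and 288 FPKM at 0 h (log2 fold change -3.35, adjusted p = 0.000886), but 5 other gene models overlap it, so its reads are uncertain. One of these, LOC101258926, had 5.76, 3.11 and 9.85 FPKM at 4 h, against 48.1, 78.4 and 120.1 FPKM at 0 h (log2 fold change -3.54, adjusted p = 0.00121). Members of this family have similar sequences, and reads could have been split between them. In total 7 of 13 tested members fell and 0 rose (53.8% called, beside 11.7% of all genes). The median was -0.86, against 0.02 for all genes, and 10 had an unadjusted p under 0.05. The 6 members not called lay between -0.82 and 1.88, the highest being XTH6 (10.1, 11.6 and 12.1 FPKM at 4 h, against 2.42, 3.61 and 1.34 FPKM at 0 h; adjusted p = 0.0552). Of the 7 falls, 5 held whichever EX library was left out, and XTH16 and the second XTH9 gene did not. Without library 2 of 0 h, 6 members fell.

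Expansins loosen cell walls without cutting them, and more of their genes rose than fell. EXP2 (chromosome 6, 32332450 to 32334159) had 208, 239 and 188 FPKM in the 4 h libraries and 18.3, 12.1 and 17.6 FPKM in the 0 h libraries, with narrow groups on either side of a wide gap (log2 fold change 3.66, SE 0.55, adjusted p = 0.000392). EXP12 had 242, 197 and 156 FPKM at 4 h, against 65.1, 41.5 and 58.3 FPKM at 0 h (log2 fold change 1.83, adjusted p = 0.000327), and EXPA4 35.5, 21.6 and 30 FPKM at 4 h, against 9.91, 5.52 and 11.2 FPKM at 0 h (log2 fold change 1.63, adjusted p = 0.00975). Of 12 tested members 5 rose and 1 fell (50% called, median 0.52). The others were exp11 (log2 fold change 1.39, adjusted p = 0.0198), EXPA10 and, falling, EXP5. EXP2, EXP12 and EXPA4 held in each fit with 1 library fewer, and exp11 was lost without library 1, 2 or 3 of 4 h or library 1 or 3 of 0 h (adjusted p 0.0526 to 0.0974). EXP5 was not called without library 2 of 0 h.

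Further cell wall genes went both ways, with 3 of 17 rising and 3 falling (35.3% called, median -0.09). AGP-1, an arabinogalactan protein gene, had 387, 357 and 520.1 FPKM at 4 h, against 1116, 1275 and 1367 FPKM at 0 h (log2 fold change -1.58, adjusted p = 0.0394). CEL8, of the endoglucanase family, had 69.2, 30.6 and 51.1 FPKM at 4 h, against 18.2, 21.3 and 21.1 FPKM at 0 h (log2 fold change 1.2, adjusted p = 0.0366). PL, a pectate lyase gene, had 21.2, 13.7 and 12.4 FPKM at 4 h, against 4.78, 11.4 and 4.26 FPKM at 0 h (log2 fold change 1.18, adjusted p = 0.0422), and the pectin methylesterase gene PMEU1 also rose. Cel3 (log2 fold change -0.87, adjusted p = 0.012), whose reads are uncertain because 2 other models overlap it, and the beta-galactosidase gene TBG2 fell. AGP-1 lost its call without any 1 of the 6 libraries (adjusted p 0.0659 to 0.131), CEL8 without library 1 or 3 of 4 h or library 1, 2 or 3 of 0 h (adjusted p 0.0629 to 0.165), PL without library 1, 2 or 3 of 4 h or library 1 or 3 of 0 h (adjusted p 0.0637 to 0.174) and Cel3 without library 1 of 4 h (adjusted p = 0.0609). Of the 6 calls in this list, 1 held in each such fit.

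**Figure D3:**
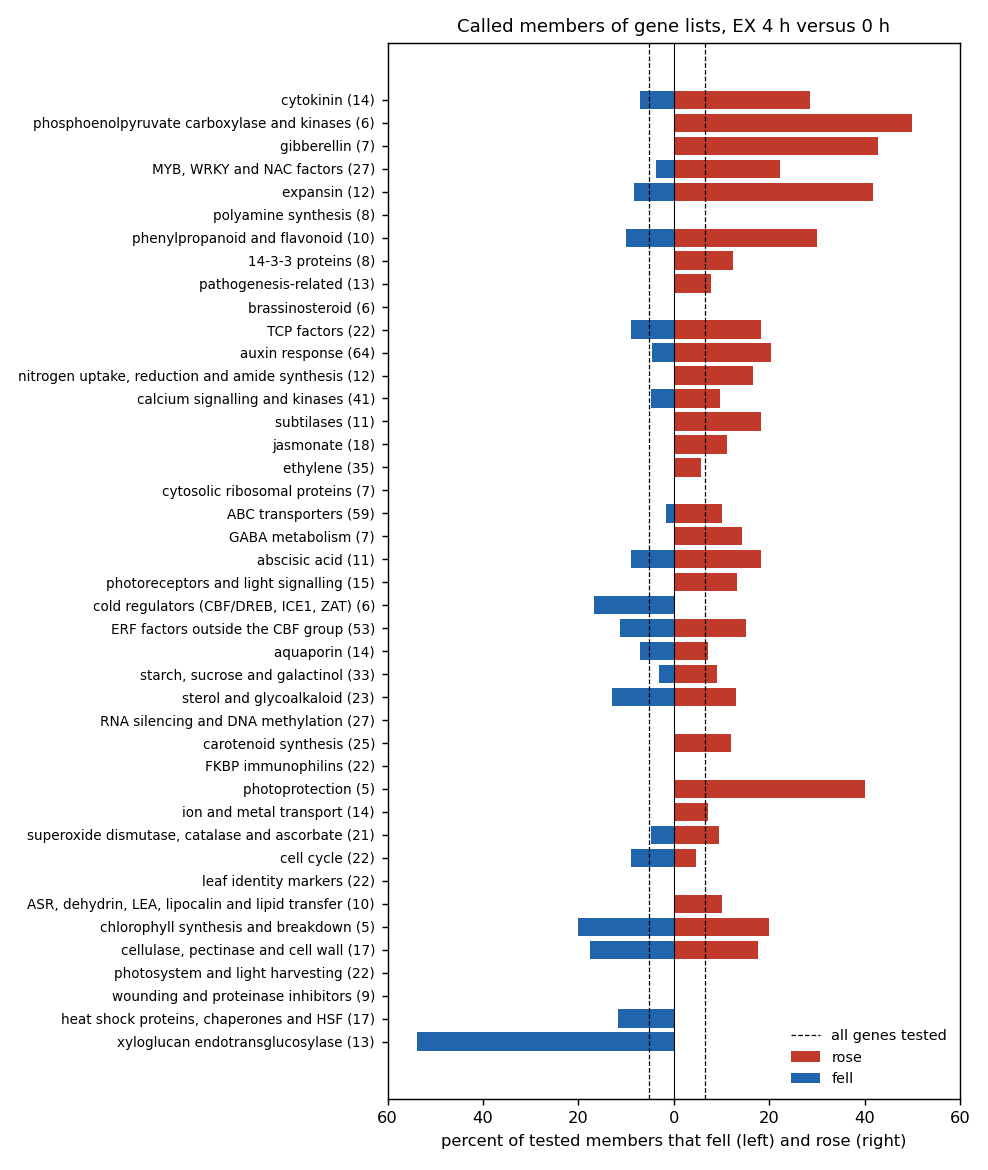
Percent of the tested members of each of 42 gene lists that rose (red, right) and fell (blue, left) in EX leaves at 4 h versus 0 h, with the number of tested members in brackets and the lists ordered by their median log2 fold change. The dashed lines mark the shares over all genes tested, 6.52% rising and 5.18% falling. The xyloglucan endotransglucosylase list has the widest bar to the left and the phosphoenolpyruvate carboxylase list the widest to the right.

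Tomato leaves make sterols and, from cholesterol, steroidal glycoalkaloids such as tomatine. JRE4, an ERF transcription factor gene known to switch on glycoalkaloid genes (chromosome 1, 84028888 to 84029877), had 15.3, 37.1 and 17.9 FPKM in the 4 h libraries and 0.6, 0.74 and 0.58 FPKM in the 0 h libraries. Library 2 of 4 h was the highest, and all 0 h libraries were under 1 FPKM (log2 fold change 3.8, SE 0.31, adjusted p = 1.45e-06). GAME18, a glycosyltransferase gene of that pathway, had 9.64, 14.9 and 10.2 FPKM at 4 h, against 1.27, 1.26 and 2.29 FPKM at 0 h (log2 fold change 2.27, adjusted p = 4.08e-05). The glycosyltransferase genes GAME17 (65.6, 84.2 and 74.7 FPKM at 4 h, against 27.8, 31.6 and 31.9 FPKM at 0 h; log2 fold change 1.27, adjusted p = 0.00137) and GAME1 (29.2, 41.8 and 37.2 FPKM at 4 h, against 14.1, 15.6 and 15.6 FPKM at 0 h; log2 fold change 1.19, adjusted p = 0.00229) rose too, and both were named after their values were seen.

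On the sterol side the called genes fell. HMG3 (chromosome 3, 4505302 to 4519328), a gene of HMG-CoA reductase, the rate-controlling enzyme of the mevalonate pathway, had 5.47, 7.7 and 8.23 FPKM in the 4 h libraries and 55.2, 36.6 and 45.2 FPKM in the 0 h libraries (log2 fold change -2.52, SE 0.21, adjusted p = 2.19e-06). HMGR4 overlaps HMG3 on the same strand and had 6.32, 8.51 and 7.76 FPKM at 4 h, against 42.2, 34.6 and 32.1 FPKM at 0 h (log2 fold change -2.13, adjusted p = 5.95e-06), so how the reads divide between them is uncertain. CYP710A11, whose enzyme makes stigmasterol by desaturating the sterol side chain, had 1.7, 2.16 and 3.24 FPKM at 4 h, against 15.1, 19.1 and 10.7 FPKM at 0 h (log2 fold change -2.23, adjusted p = 4.62e-05). With these, 3 of 23 sterol and glycoalkaloid genes rose and 3 fell (26.1% called, median 0.01), and all 6 calls held in each fit with 1 EX library fewer.

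Phenylpropanoid genes had 3 of 10 members rising and 1 falling (40% called, median 0.39). hqt, the gene of the transferase that makes chlorogenic acid, had 123, 181 and 167 FPKM in the 4 h libraries and 18.5, 34.1 and 14.3 FPKM in the 0 h libraries (log2 fold change 2.83, SE 0.29, adjusted p = 1.42e-05). PAL2 and 4CL encode enzymes of the entry into the pathway and had log2 fold changes of 1.31 (adjusted p = 0.0432) and 1.57 (adjusted p = 0.0457). ANS, an anthocyanidin synthase gene, was low and fell, with 0.63, 0.42 and 0.65 FPKM at 4 h, against 1.6, 1.68 and 1.87 FPKM at 0 h (log2 fold change -0.8, adjusted p = 0.00372), and its reads are uncertain because another model overlaps it. 4CL lost its call without library 2 or 3 of 4 h or library 1 or 3 of 0 h (adjusted p 0.139 to 0.177) and PAL2 without any 1 of the 6 libraries (adjusted p 0.0674 to 0.143).

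Among genes tied to light and day length, CO1 and CO3 of the CONSTANS family, neighbours on chromosome 2, both rose. CO1 (51323046 to 51325551) had 33.9, 33.1 and 34.9 FPKM in the 4 h libraries and 3.1, 1.98 and 3.13 FPKM in the 0 h libraries (log2 fold change 3.24, SE 0.30, adjusted p = 6.35e-06). CO3 (51314208 to 51315980) had 17.2, 20.8 and 14.5 FPKM at 4 h, against 4.73, 6.95 and 3.02 FPKM at 0 h (log2 fold change 1.69, adjusted p = 0.00138). Both were separated from 0 h in each library. LNK1 and SFT, the other 2 tested members of the clock list, were not called (log2 fold change -0.24 and 0.14). Of this short list 50% was called (median 0.92), beside 11.7% of all genes. HY5, a transcription factor gene of seedling greening, had 11.9, 5.34 and 10.2 FPKM at 4 h, against 1.38, 1.02 and 1.72 FPKM at 0 h (log2 fold change 2.05, adjusted p = 0.00448), and COP1, whose ubiquitin ligase degrades HY5 in the dark, 28, 22.4 and 22.8 FPKM at 4 h, against 11.6, 9.82 and 11 FPKM at 0 h (log2 fold change 1.1, adjusted p = 0.00128). They were the called members of 15 on photoreceptors and light signalling (13.3% called, median 0.08). GLK1, a transcription factor gene of chloroplast formation, had 91.7, 85.7 and 68.8 FPKM at 4 h, against 40.9, 27.1 and 41.1 FPKM at 0 h (log2 fold change 1.17, adjusted p = 0.00793). POR2, a protochlorophyllide reductase gene, had 261, 226 and 241 FPKM at 4 h, against 513, 325 and 493 FPKM at 0 h (log2 fold change -0.84, adjusted p = 0.0422) and lost its call without library 1, 2 or 3 of 4 h or library 1 or 3 of 0 h (adjusted p 0.0818 to 0.172).

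Photosynthesis genes themselves were not called. In the photosystem and light-harvesting list 0 of 22 members rose or fell by limma (1 with an unadjusted p under 0.05), and the median was -0.11. Their summed level was 64928, 64170.3 and 60607 FPKM at 4 h, against 76933, 51505 and 84900.1 FPKM at 0 h. The 0 h libraries lay on both sides of the 4 h libraries, with library 2 below. Without it, 1 member fell. None of 3 Calvin cycle genes was called by limma, and 0 had an unadjusted p under 0.05. Of 5 photoprotection genes PTOX and ELIP rose (40% called, median -0.01). ELIP, of the early light-induced proteins, was low (3.52, 1.18 and 2.69 FPKM at 4 h, against 0.29, 0.45 and 0.42 FPKM at 0 h; log2 fold change 1.26, adjusted p = 0.0204), overlaps 2 other models and lost its call without library 1 or 3 of 4 h or library 1 or 3 of 0 h (adjusted p 0.0531 to 0.1).

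CBF1 (chromosome 3, 3714712 to 3715582) was lower at 4 h than at 0 h, and the cause was not tested. It had 27.4, 19.7 and 28.7 FPKM in the 4 h libraries and 91.6, 131 and 137 FPKM in the 0 h libraries, without overlap (log2 fold change -2.2, SE 0.58, adjusted p = 0.0217). The call was lost without library 1, 2 or 3 of 4 h or library 2 or 3 of 0 h (adjusted p 0.0521 to 0.0864). In MT CBF1 fell as well (MT log2 fold change -1.88, limma adjusted p = 0.0419). The other 5 tested cold regulators were not called, so that 16.7% of the list was called. DREB3 had 175, 207 and 213 FPKM at 4 h, against 105, 161 and 93.3 FPKM at 0 h (log2 fold change 0.76, adjusted p = 0.142). DREB2 had 19.9, 11.5 and 30.1 FPKM at 4 h, against 18.8, 55.5 and 19 FPKM at 0 h, with library 2 of 0 h far above the rest (log2 fold change -0.48, adjusted p = 0.753). ICE1A, ZAT12 and ZAT6 had log2 fold changes of -0.06, 0.18 and 0.38. Of 10 genes for ASR, dehydrin, LEA, lipocalin and lipid transfer proteins, 1 rose and 0 fell (10% called, median -0.07), close to the share over all genes. The rising member was TIL, a temperature-induced lipocalin gene. It had 57.7, 52.2 and 54.8 FPKM at 4 h, against 40.8, 40.3 and 40.9 FPKM at 0 h (log2 fold change 0.42, adjusted p = 0.0251). Its call was lost without any 1 of the 6 libraries (adjusted p 0.0527 to 0.099).

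Of 17 tested genes of heat shock proteins and their regulators 2 fell and 0 rose (11.8% called, median -0.51), a share close to the 11.7% over all genes. The other 15 were not called, and the log2 fold changes of all 17 were negative, as were those of 8280 of the 17325 genes. HSFA3, a heat shock factor gene, had 30.8, 29.3 and 29.5 FPKM at 4 h, against 53.1, 60.8 and 47 FPKM at 0 h (log2 fold change -0.82, adjusted p = 0.00285). HSP100/CLPB, a chaperone that pulls apart protein aggregates, had 12.8, 14.4 and 15.8 FPKM at 4 h, against 24.5, 24.5 and 25.7 FPKM at 0 h (log2 fold change -0.76, adjusted p = 0.0024). Both calls held in each fit with 1 library fewer. Several members were uneven at 0 h. For example Hsc70.1, named after its values were seen, had 13, 52.5 and 41.2 FPKM at 4 h, against 90.5, 280.3 and 48.1 FPKM at 0 h (log2 fold change -1.77, adjusted p = 0.338), with its highest value in library 2 of 0 h.

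Among antioxidant genes, 2 of ascorbate synthesis rose. GGP1, the gene of GDP-galactose phosphorylase, the committed enzyme, had 409, 449.6 and 400.2 FPKM in the 4 h libraries and 145, 159 and 126 FPKM in the 0 h libraries (log2 fold change 1.55, SE 0.15, adjusted p = 7.32e-06). GME1, a GDP-mannose epimerase gene of the same pathway, had 49.5, 41.4 and 36 FPKM at 4 h, against 16.8, 15.8 and 17.6 FPKM at 0 h (log2 fold change 1.28, adjusted p = 1.2e-05). SODCP.2, a copper/zinc superoxide dismutase gene, fell (5.36, 5.18 and 5.12 FPKM at 4 h, against 10.9, 8.15 and 11.3 FPKM at 0 h; log2 fold change -0.83, adjusted p = 0.00588). These were the called members of 21 on superoxide dismutase, catalase and ascorbate (14.3% called, median -0.01), and they held whichever EX library was left out.

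Transcription factor families went both ways. Genes of the AP2/ERF family outside the CBF group, AP2 and RAV genes included, had 8 of 53 members rising and 6 falling (26.4% called, median 0.06). ERF1 (chromosome 5, 61441675 to 61442668) had 17.8, 36.1 and 23.6 FPKM in the 4 h libraries and 1.04, 2.66 and 1.07 FPKM in the 0 h libraries (log2 fold change 3.37, SE 0.43, adjusted p = 0.000101). ERF-H1 had 2.78, 3.04 and 4.95 FPKM at 4 h, against 21.3, 19 and 23.8 FPKM at 0 h (log2 fold change -2.31, adjusted p = 0.00937). AP2e had 25.1, 51 and 37.7 FPKM at 4 h, against 4.81, 6.26 and 3.03 FPKM at 0 h (log2 fold change 2.76, adjusted p = 0.00311), and all 3 held in each fit with 1 library fewer. Of 27 MYB, WRKY and NAC factors 6 rose and 1 fell (25.9% called, median 0.53). WRKY40 was the one that fell, with 65.5, 54.8 and 56.1 FPKM in the 4 h libraries and 249, 240.4 and 358 FPKM in the 0 h libraries (log2 fold change -2.23, SE 0.22, adjusted p = 1.18e-05). NAM1, of the NAC family, had 128, 197 and 177 FPKM at 4 h, against 34.1, 54.1 and 28.7 FPKM at 0 h (log2 fold change 2.1, adjusted p = 0.00196). MYB75 was near 0 at 0 h, with 3.12, 3.8 and 2.56 FPKM at 4 h, against 0, 0.23 and 0 FPKM at 0 h (log2 fold change 1.95, adjusted p = 0.00346), and WRKY45 (log2 fold change 1.56) was lost without library 3 of 4 h or library 1 or 3 of 0 h (adjusted p 0.0596 to 0.0852).

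Among genes with a symbol and at least 5 FPKM on average in the higher group, the highest log2(FPKM + 1) fold change was that of ail (chromosome 8, 45777890 to 45779257), which had 118, 243 and 148 FPKM in the 4 h libraries and 4.1, 7.28 and 3.57 FPKM in the 0 h libraries (log2 fold change 4.82, SE 0.37, adjusted p = 1.05e-06). fsm1, which encodes a small MYB-like protein first described in young tomato fruit, had 13.1, 19.8 and 17.8 FPKM in the 4 h libraries and 0.23, 0 and 0.23 FPKM in the 0 h libraries (log2 fold change 3.94, SE 0.37, adjusted p = 6.67e-06). The order depends on the pseudocount: as a plain ratio of mean FPKM, 4 h was 110.2 times 0 h for fsm1 and 34.0 times for ail, with fsm1 near 0 at 0 h. LOC101261079 (chromosome 2, 30601561 to 30604357) had 239, 289 and 252 FPKM in the 4 h libraries and 0.67, 0.63 and 0.88 FPKM in the 0 h libraries, the highest log2 fold change of all genes tested (log2 fold change 7.24, adjusted p = 9.45e-11). LOC101259222 on chromosome 3 had 119, 295 and 156 FPKM at 4 h, against 3.32, 1.84 and 3.2 FPKM at 0 h (log2 fold change 5.57, adjusted p = 6.3e-08). LOC101257836 (log2 fold change 5.09), LOC101265452 (4.90) and LOC101259175 (4.27) completed the 5 highest of genes without a symbol that passed the naming conditions.

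The lowest fold change belonged to LOC104644303 (chromosome 4, 60437911 to 60439062), with 19.5, 9.44 and 14.4 FPKM in the 4 h libraries and 362, 393 and 475 FPKM in the 0 h libraries (log2 fold change -4.78, adjusted p = 8.86e-08). LOC101261020 overlaps it and also fell (mean 46.3 FPKM at 4 h and 172 FPKM at 0 h, log2 fold change -1.88), so the reads of both are uncertain. LOC101260427 lies beside them on chromosome 4 (60421648 to 60422871) and had 53.9, 41.9 and 62.5 FPKM at 4 h, against 736, 629 and 1022 FPKM at 0 h (log2 fold change -3.88, adjusted p = 2.15e-06). LOC101258701 had 10.5, 9.94 and 8.68 FPKM at 4 h, against 158, 225 and 141 FPKM at 0 h (log2 fold change -4.01, adjusted p = 2.23e-07), and LOC101244523 7.41, 13.1 and 11 FPKM at 4 h, against 154, 143 and 106 FPKM at 0 h (log2 fold change -3.57, adjusted p = 4.29e-07). Neither the deposited table nor the reference table gives these genes a description, so no role is stated. The called share was between 10.9% and 13.8% on each of the 12 chromosomes, lowest on chromosome 6 and highest on chromosome 5.

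The EX libraries of 12 h were set beside these levels, without a test. The genes were chosen by their 4 h and 0 h values, so where the 12 h mean lies depends partly on that choice. No such counts were made for all genes. Of the 565 genes that rose by at least 1 log2 unit, the 12 h mean lay beyond the 4 h mean in 317, between the 4 h and 0 h means in 245 and past the 0 h mean in 3. Of the 390 that fell by at least 1 log2 unit it lay beyond in 150, between in 234 and past in 6. NR had 273, 261 and 224 FPKM at 12 h, PPCK1 281, 363 and 298 FPKM and Psy1 41.6, 65.6 and 55.8 FPKM. All 9 of these values exceed the 0 h libraries of the same gene. tXET-B2 had 19.5, 25.6 and 7.12 FPKM at 12 h and BR1 95, 155 and 116 FPKM, still far under their 0 h levels. CBF1 was uneven at 12 h, with 14.1, 77.8 and 11.9 FPKM, and its library 2 stood apart from libraries 1 and 3.

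**Figure D4:**
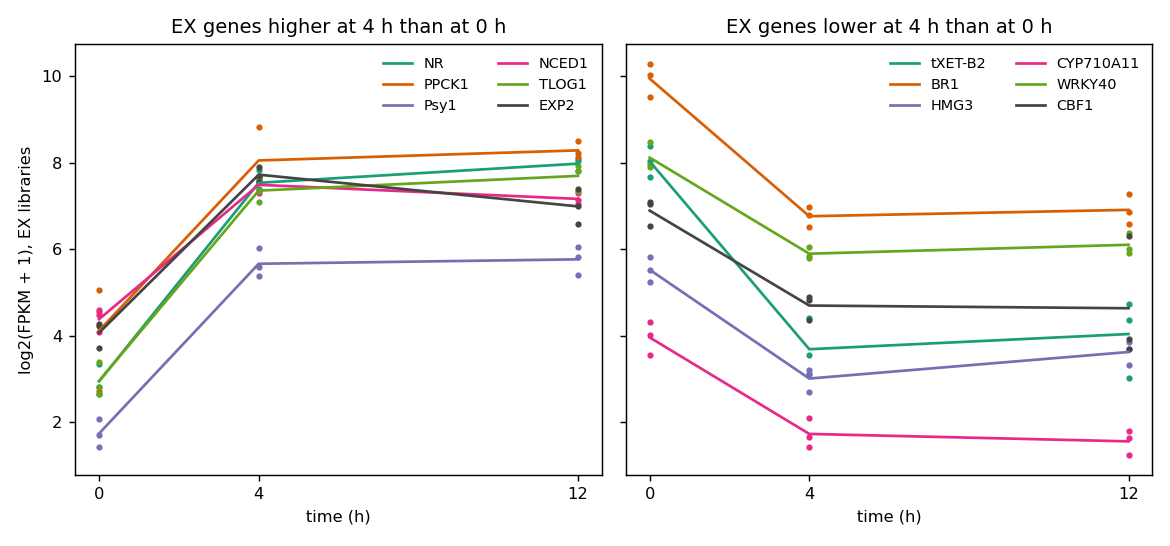
log2(FPKM + 1) in EX leaves at 0, 4 and 12 h (points, 1 per library) with lines through the means of 3 libraries, for 6 genes higher at 4 h than at 0 h (left) and 6 lower (right). The 6 on the left stay high and the 6 on the right stay low at 12 h, except for 1 library of CBF1.

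MT leaves were sampled at the same hours, and the comparison asks whether the change in EX differed from that in MT. The stress label reads cold for every EX library and control for every MT library, while the protocol has both in the cold. A difference between the materials thus cannot be told apart from a difference in treatment with these labels. In the same fit 2440 of the 17325 genes were called in MT (14.1%), 1170 rising and 1270 falling. These genes were kept by their EX means alone, so genes that reach 1 FPKM only in MT are not counted. Genes that rose in both materials numbered 641, which is 56.7% of those rising in EX and 54.8% of those rising in MT. Those that fell in both numbered 575, or 64.0% of those falling in EX and 45.3% of those falling in MT. Calls in opposite directions numbered 3. Of the 2028 genes called in EX, 1969 (97.1%) had the same sign in MT, beside 71.3% of all genes. NR, for instance, had 110.2, 274 and 122 FPKM in MT at 4 h and 8.89, 2.1 and 6.66 FPKM in MT at 0 h (MT log2 fold change 4.65).

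A direct test of the difference between the EX and MT changes called 10 genes (0.0577%), 4 with a higher and 6 with a lower log2 fold change in EX, and 1101 genes had an unadjusted p under 0.05. GLB1, a class 1 hemoglobin gene (chromosome 7, 2965697 to 2967964), had 25, 18.9 and 23.6 FPKM in the 4 h libraries and 34.2, 37 and 22.9 FPKM in the 0 h libraries of EX. It had 48.1, 24.8 and 30.1 FPKM in MT at 4 h and 0.19, 0 and 0.25 FPKM in MT at 0 h. In EX the gene was already at its later level at 0 h and was not called, and in MT it was near 0 at 0 h (difference of the log2 fold changes -5.34, SE 0.42, adjusted p = 2.53e-05). This call held in every fit tried. GABA-TP3, a transaminase gene of GABA breakdown (chromosome 12, 921679 to 927385), had 1.59, 2.11 and 1.54 FPKM at 4 h, against 3.89, 2.92 and 4.78 FPKM at 0 h in EX. It had 2.87, 2.12 and 2.28 FPKM in MT at 4 h and 106, 30.8 and 74.3 FPKM in MT at 0 h, so that the 0 h libraries of MT were far above the other 3 groups (difference of the log2 fold changes 3.41, SE 0.47, adjusted p = 0.0137). It lost its call without library 2 or 3 of 4 h or library 2 of 0 h or library 3 of 0 h in MT (adjusted p 0.0508 to 0.0666).

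The other 8 called genes have no symbol and were named after their values were seen. LOC104644367 (chromosome 1, 88528838 to 88529566) was the 1 of these with a large change in EX, with 0, 0.34 and 0.18 FPKM in the 4 h libraries and 7.89, 11.9 and 11.6 FPKM in the 0 h libraries of EX. It had 12.7, 3.86 and 8.55 FPKM in MT at 4 h and 16.5, 6.37 and 7.96 FPKM in MT at 0 h. The groups overlapped in MT but not in EX (difference of the log2 fold changes -2.99, SE 0.48, adjusted p = 0.0326). LOC101244322 overlaps it, so its reads are uncertain, and the call was lost without library 1, 2 or 3 of 4 h or library 1, 2 or 3 of 0 h or library 1 or 3 of 4 h in MT or library 2 or 3 of 0 h in MT (adjusted p 0.0505 to 0.116). The count of 10 was 1 without library 2 of 4 h in EX and also without library 3 of 4 h in EX, and 23 without library 1 of 0 h in MT. It was 2 without library 2 of 0 h in EX or library 3 of 0 h in MT, 5 without library 1 or 3 of 0 h in EX, 6 without library 1 of 4 h in EX or library 3 of 4 h in MT, and 17 without library 2 of 4 h in MT.

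**Figure D5:**
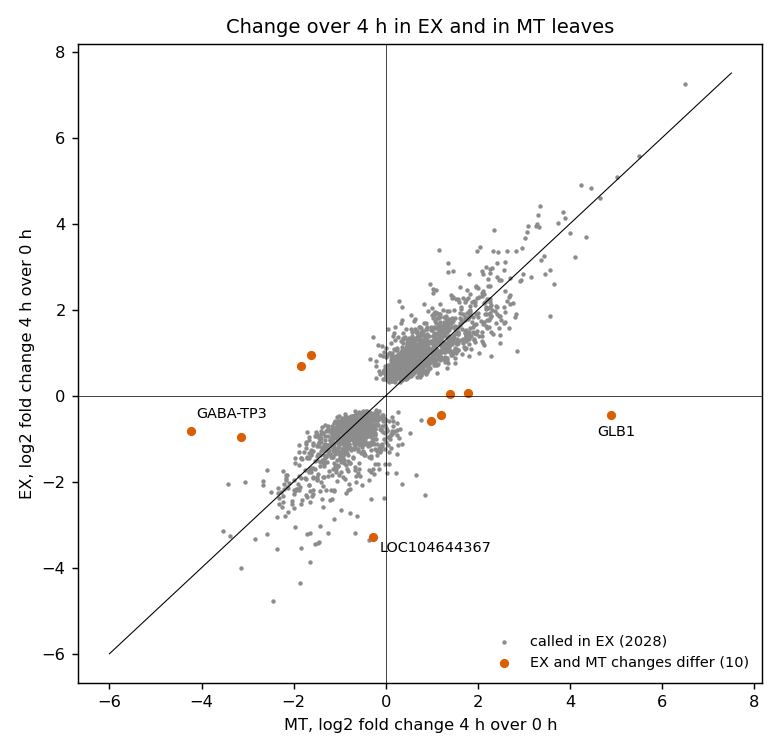
log2 fold change of 4 h over 0 h in EX (vertical axis) and in MT (horizontal axis) for the 2028 genes called in EX (grey) and the 10 genes whose changes differed between the materials (orange), from group means of 3 libraries. The line marks equal changes. Most grey points lie in the lower left and upper right, while GLB1 (-0.44 in EX, 4.90 in MT) and GABA-TP3 (-0.81 in EX, -4.22 in MT) lie nearer to 0 on the EX axis than on the MT axis.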

How the data were processed

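Per the file headers, the authors deposited FPKM values per gene and library in 1 table, with a second, identical set of 18 columns that was not used. Further columns hold log2 ratios with p-values and q-values of the authors, per the file headers. Tools listed without roles in the submitters' processing notes are RSEM 1.2.12, DESeq2 1.4.5, Bowtie2 2.2.5 and HISAT2 2.0.4. The genome build and the use of strand are not given in the sources used here. Coordinates are the deposited table's, and symbols and chromosome numbers come from a RefSeq table of SLM_r2.1, matched by identifier for 21649 of 23348 genes. No counts were used: the steps between low FPKM values gave an estimate of the fragments per library (94.6 to 96.8% of them within 0.1 of a whole fragment in the 6 EX libraries).

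Genes averaging 1 FPKM or more in EX at 4 h or 0 h were fitted with limma 3.58.1 (R 4.3.3) on log2(FPKM + 1), with 6 group means over all 18 libraries, a mean-variance trend and two-sided p-values adjusted by Benjamini-Hochberg over all 17325 genes. All groups thus share 1 spread per gene, although the median SD of a gene ranged from 0.128 (EX, 4 h) to 0.269 (MT, 4 h). An EX p-value therefore also depends on how uneven the MT libraries are. The limma adjusted p of GAI was 0.0337 with all libraries and 0.00325 with the 6 EX libraries alone. That of GAD2 went the other way, from 0.0169 to 0.086. An exact permutation test of 3 against 3 libraries cannot go below 0.1 and was not used. Tested on simulated data, the fit found 72 of 100 changes of 1 log2 unit and 93 of 100 of 2, with 7 false among 172 calls. The simulated noise was normal with 1 spread per gene for all groups, and the changed genes averaged above 2 in log2(FPKM + 1). The real groups differed in spread and held weaker genes, so these rates do not carry over to the real data. The authors' deposited table has a q-value under 0.05 for 13012 of the 17325 genes and, for all 2028 called, the same direction.

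Named genes are, for called genes that carry a symbol, average 5 FPKM or more in the higher group and do not overlap, the 12 highest and 12 lowest fold changes, the 5 and 5 without a symbol, up to 4 called members per list, CBF1, and, for the EX and MT difference, up to 6 with a symbol per direction. Members and lists were chosen with earlier results of these data known, and symbols decided list membership. Alternatives were a pseudocount of 0.1 FPKM, filters of 5 FPKM and none, median-of-ratios scaling, robust moderation, fewer libraries and a replicate block. Identical values between libraries of a time were at most 0.352% in EX at 4 h and 0 h. Sequences were not analysed here. Some members of the auxin list are not reported here by name.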

Additional observations from a re-analysis of the deposited data

Results flagged for a closer look

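The test of the difference between the EX change and the MT change over 4 h set 10 genes apart, given here as EX minus MT difference of the log2 fold changes. Material and stress label go together in this test and cannot be told apart. GLB1 (-5.34), LOC104644367 (-2.99), LOC101246068 (-1.72), LOC101262022 (-1.64), LOC101263742 (-1.57) and LOC101256110 (-1.35) had the lower log2 fold change in EX, and of these LOC104644367 and LOC101263742 fell in EX and the other 4 were not called there. The EX call of LOC101263742 was lost without library 1, 2 or 3 of 4 h or library 1 or 3 of 0 h (adjusted p 0.0565 to 0.118). GABA-TP3 (3.41), BGI_novel_G000263 (2.58), LOC101267794 (2.54) and LOC101248573 (2.19) had the higher log2 fold change in EX, where GABA-TP3 (log2 fold change -0.81) and LOC101248573 (log2 fold change -0.96) were nevertheless lower at 4 h than at 0 h. LOC101246068 had 131, 120.5 and 122 FPKM at 4 h, against 109, 109 and 145 FPKM at 0 h in EX, and 211, 120.1 and 172 FPKM in MT at 4 h and 48.2, 47.9 and 44.9 FPKM in MT at 0 h. LOC101262022 had 10.5, 11.3 and 11 FPKM at 4 h, against 16.5, 19.8 and 10.9 FPKM at 0 h in EX, and 14.7, 12.7 and 11.7 FPKM in MT at 4 h and 5.38, 5.49 and 4.53 FPKM in MT at 0 h. Both lie on chromosome 7 within 2 Mb of GLB1, at 4378755 to 4380082 and 2323841 to 2335310. In all 3 the EX groups overlapped and MT at 4 h was above MT at 0 h in every library. LOC101248573 had 2.94, 3.95 and 3.71 FPKM at 4 h, against 8.68, 8.7 and 6.2 FPKM at 0 h in EX, and 1.77, 0.39 and 0.58 FPKM in MT at 4 h and 18.7, 14.7 and 12.7 FPKM in MT at 0 h. Its EX call was lost without library 1, 2 or 3 of 4 h or library 1 or 2 of 0 h (adjusted p 0.0507 to 0.0947). BGI_novel_G000263, a transcript model added by the authors, had 4.04, 5.14 and 4.43 FPKM at 4 h, against 2.32, 1.41 and 1.88 FPKM at 0 h in EX, and 0.68, 1.67 and 0.12 FPKM in MT at 4 h and 5.65, 3.31 and 4.19 FPKM in MT at 0 h. It stood higher at 4 h in EX and lower at 4 h in MT. Its EX call was lost without library 2 or 3 of 4 h or library 2 or 3 of 0 h (adjusted p 0.0601 to 0.0934).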

How the results depend on the processing

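No gene named by the rule changed its sign under any alternative tried. The count of changed genes (2028) lay between 1204 and 2012 with 1 EX library of 4 h or 0 h fewer, the rising count (1130) between 673 and 1182 and the falling count (898) between 531 and 830. Fits on other libraries, scalings, filters and pseudocounts gave 1699 to 2624 changed genes. The count of 10 genes whose change differed between the materials was 2 on the 12 libraries of 0 h and 4 h alone, 5 with a filter of 5 FPKM, 21 with no filter on low values, 5 with the replicate block, and 1 to 23 with 1 library fewer; the cause was not tested. Replicate numbers were shared by the groups, but whether they pair the libraries could not be settled with 3 libraries per time. The deviations of same-numbered EX libraries correlated at 0.12, 0.22 and -0.26. Those of EX libraries with different numbers correlated at -0.53 to 0.52. With the replicate block 1851 genes were called, 1728 of them among the 2028. Of 109 called genes named, leaving out 1 EX library ended the call of 12 to 30. The 6 EX libraries alone ended 6 (adjusted p GAD2 0.086, PL 0.0822, CYP707A2 0.0666, SFP4 0.0506, cdc20-1 0.115 and MAPK7 0.0674), the replicate block 6 (AGP-1 0.0583, FZY5 0.0618, PAL2 0.0741, CYP707A2 0.0713, PIP2-6 0.0671 and TIL 0.0507), the 9 EX libraries 4 (PL, PIP2-6, cdc20-1 and WRKY45) and no filter on low values 11 (POR2, HT2, AGP-1, PL, PIP2-6, FZY5, GA2ox4, CYP707A2, 4CL, PAL2 and MAPK7). Median-of-ratios scaling and robust moderation each ended that of GA2ox4, and a pseudocount of 0.1 FPKM that of cdc20-1. The pseudocount of 0.1 FPKM raised the genes changed by at least 1 log2 unit to 1151 (955 with 1 FPKM). List counts without library 2 of 0 h were added after seeing the data. The promoter motif description planned was not run. Depth limits genes near 1 FPKM.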

Other observations

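Counts in the remaining gene lists are given beside 11.7% called over all genes (6.52% rising, 5.18% falling), and the shares of the cell cycle, aquaporin, ABC transporter and 14-3-3 lists lie near it. TCP factors, which control cell proliferation and growth in leaves, had 4 of 22 tested members rising and 2 falling (27.3% called, median 0.26). TCP10 had 40.4, 76.3 and 55.4 FPKM at 4 h, against 8.1, 15 and 7.77 FPKM at 0 h (log2 fold change 2.38, adjusted p = 0.000303). TCP20 had 26.8, 35.9 and 29.7 FPKM at 4 h, against 10.8, 4.1 and 9.26 FPKM at 0 h (log2 fold change 1.89, adjusted p = 0.000963), and both were separated from 0 h in each library. TCP14 fell, with 23.6, 25.5 and 24.2 FPKM at 4 h, against 41.8, 44.9 and 40.2 FPKM at 0 h (log2 fold change -0.77, adjusted p = 0.00477). Of 22 cell cycle genes 1 rose and 2 fell (13.6% called, median -0.05). ccs52A, which encodes an activator of the anaphase-promoting complex known to drive endoreduplication, had 5.6, 4.17 and 5.46 FPKM at 4 h, against 12.9, 9.89 and 13.2 FPKM at 0 h (log2 fold change -1.1, adjusted p = 0.00285). krp2, of the cyclin-dependent kinase inhibitors, had 7.06, 10.2 and 11.8 FPKM at 4 h, against 2.17, 3.31 and 3.66 FPKM at 0 h (log2 fold change 1.39, adjusted p = 0.0218) and lost its call without library 2 or 3 of 4 h or library 1 of 0 h (adjusted p 0.0755 to 0.101). The list had 2 rising and 3 falling members without library 2 of 0 h.

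Calcium signalling and kinase genes had 4 of 41 members rising and 2 falling (14.6% called, median 0.18). The protein kinase genes CIPK6 (183, 159 and 191 FPKM at 4 h, against 67.8, 72 and 76.8 FPKM at 0 h; log2 fold change 1.28, adjusted p = 0.00138) and CIPK14 (6.17, 6.63 and 6.66 FPKM at 4 h, against 16.1, 19.6 and 12.3 FPKM at 0 h; log2 fold change -1.16, adjusted p = 0.000174) moved in opposite directions, and both calls held whichever EX library was left out. Aquaporins had 1 of 14 rising and 1 falling (14.3% called): the vacuolar channel gene TIP2-2 had 271, 324 and 314 FPKM at 4 h, against 134, 206 and 128 FPKM at 0 h and the plasma membrane channel gene PIP2-6 462, 464 and 426 FPKM at 4 h, against 982, 625 and 918 FPKM at 0 h. TIP2-2 lost its call without library 1 or 3 of 0 h (adjusted p 0.0545 to 0.0576) and PIP2-6 without library 1, 2 or 3 of 4 h or library 1 or 3 of 0 h (adjusted p 0.0912 to 0.162). ABC transporters had 6 of 59 rising and 1 falling (11.9% called, median 0.10), among them ABCG26 (34.9, 28.7 and 29.4 FPKM at 4 h, against 15.9, 15.9 and 13.7 FPKM at 0 h; log2 fold change 0.98, adjusted p = 0.00251). LHA4, a plasma membrane proton pump gene, was the 1 called gene of 14 on ion and metal transport (7.14%; 107, 112 and 104 FPKM at 4 h, against 75.5, 78.1 and 73.9 FPKM at 0 h; log2 fold change 0.5, adjusted p = 0.0042). Subtilases had 2 of 11 rising (sbt4d and P69A, 18.2% called), and 14-3-3 proteins 1 of 8 (TFT1, 12.5%). P69A was also the 1 of 13 pathogenesis-related genes that rose (7.69% called). The call of sbt4d was lost without library 1 or 2 of 4 h or library 3 of 0 h (adjusted p 0.0573 to 0.068), that of P69A without library 1 or 2 of 4 h or library 1 or 3 of 0 h (adjusted p 0.056 to 0.102) and that of TFT1 without any 1 of the 6 libraries (adjusted p 0.0604 to 0.14). Limma called 0 of 27 genes of RNA silencing and DNA methylation (3 with an unadjusted p under 0.05), 0 of 22 FKBP immunophilins (1), 0 of 9 genes of wounding and proteinase inhibitors (0), 0 of 8 of polyamine synthesis (2), 0 of 7 cytosolic ribosomal proteins (0) and 0 of 22 leaf identity markers (1). LAT56, named for pollen, rose at a low level (1.95, 1.04 and 1.27 FPKM at 4 h, against 0.17, 0.04 and 0.33 FPKM at 0 h; log2 fold change 1.03, adjusted p = 0.0028).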
